A study of Gallus gallus with 8 samples.

Results

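miR-9 is a microRNA of the vertebrate nervous system, and in this table of small RNA from the chick embryonic face it is measured as 2 features, the arms gga-miR-9-5p and gga-miR-9-3p. They are the features whose miRNA number is exactly 9, taken by name from the 994 features of the table. The tissue was the ectoderm of the frontonasal ectodermal zone, a centre that directs growth of the upper jaw and in time expresses Sonic hedgehog (SHH). Rhode Island Red embryos without treatment were collected at 48 h, when they had reached stage 18 of the Hamburger-Hamilton series (HH18), or at 72 h and stage 22 (HH22), before and after SHH begins to be expressed there. Each stage had 4 libraries, numbered 5 to 8 at HH18 and 1 to 4 at HH22, and every library pooled 2 chicks, so p-values describe the spread between such pools.

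A microRNA hairpin is cut into 2 short strands, named 5p and 3p for the side they come from, and usually only 1 of them is retained in quantity to repress matching mRNAs. miR-9 is one of the most studied microRNAs of the developing brain, where neural progenitors express it strongly. In the mouse it represses Nr2e1 and Hes1, regulators of progenitor state, and in zebrafish it acts on genes of the Fgf pathway near the border between midbrain and hindbrain. The 3p strand, long called miR-9*, is also functional in mammals, where the pair of strands acts on the REST repressor complex that silences neuronal genes.

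The RefSeq annotation of the GRCg7b assembly lists 4 chicken genes for miR-9, named MIR9-1 to MIR9-4. MIR9-1 lies between the protein-coding genes MEF2B and TMEM161A. MIR9-2 lies before TMEM161B, MIR9-4 after MEF2D, and MIR9-3 between RHCG and POLG. MIR9-2 and MIR9-3 each overlap a hairpin gene of the name MIR9B. Whether the authors' counting separated reads of these overlapping hairpins by strand is not stated, so the miR-9 values may include reads from them. Since the table holds 1 feature per arm, the share of each of the 4 genes in the reads cannot be told apart. No other feature had the same reads as either arm in all 8 libraries.

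The libraries held 6276121 to 31318393 reads at HH18 and 46912793 to 88471588 at HH22, so depth and stage cannot be told apart in the raw comparison. Values below are normalized counts, which are reads divided by a library's size factor (1 read was worth 0.336 to 4.18 normalized counts, depending on the library). The 8 epithelial marker features, among them the miR-200 family, had reads in every library, and summed to 263830 to 375392 normalized counts at HH18 and 453494 to 612253 at HH22. Mesenchymal markers (4 features) summed to 2454 to 5400 at HH18 and 6658 to 9415 at HH22. Striated muscle markers (6 features) summed to 0 to 80.9 in the 8 libraries. HH18 replicates 5 and 6 were the shallowest libraries. HH18 replicate 5 also held the highest sum of blood markers, 10733 normalized counts against 31.8 to 1366 in the other libraries. Among the HH18 libraries, replicate 5 had the highest mesenchymal sum (5400 against 2454 to 3274) and the lowest epithelial sum (263830 against 327590 to 375392).

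miR-9-5p, the abundant arm, was lower at HH22 in every library. At HH18 it measured 15551, 20096, 20682 and 23806 normalized counts in replicates 5, 6, 7 and 8. At HH22 it measured 7879, 8689, 9411 and 8661 in replicates 1, 2, 3 and 4. The lowest HH18 library thus stood well above the highest HH22 library, and the stages did not overlap. The level went from 20034 ± 3403 to 8660 ± 626 (SD, n = 4 per stage), which is 2.31-fold lower. Its log2 fold change was -1.20 (SE 0.14, 95% interval -1.51 to -0.89, limma adjusted p = 0.000489). In a bulk sample, fewer cells of a type and less of the RNA per cell cannot be told apart.

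Among the 356 miRNAs tested over the whole table, 4.78% (17 miRNAs) were called lower at HH22 and 9.83% (35) higher. Of these 17, miR-9-5p had the smallest p-value, ranked 3 by abundance and ranked 10 by the size of its fall. HH22 values lay entirely below HH18 values for 8.71% of the tested miRNAs, and the stages did not overlap in either direction for 20.2%. Scaling the libraries without their 5 most abundant features changed the split to 24 higher and 47 lower, and moved the median log2 fold change by -0.43. The calls of lower miRNAs numbered only 9 without HH18 replicate 8 or without HH22 replicate 1, 2 or 3, and 10 without HH22 replicate 4. miR-9-5p was called lower in each of these fits.

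**Figure D1:**
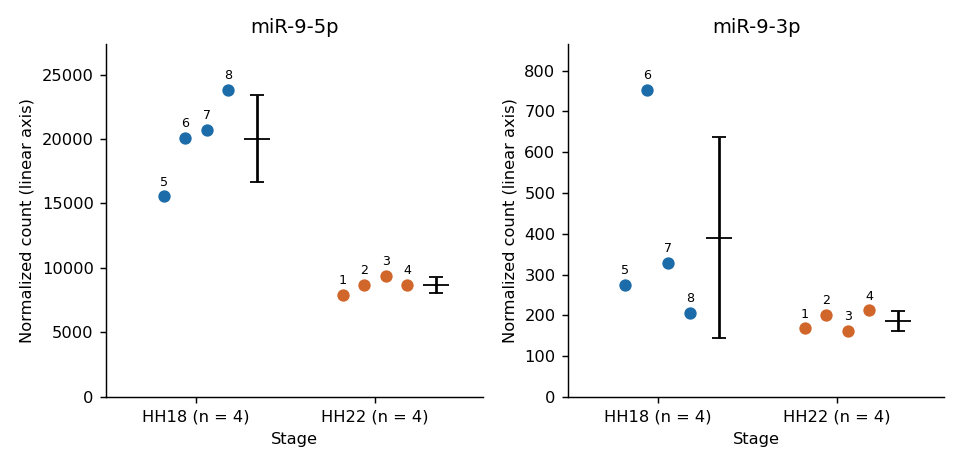
Normalized counts (linear axes from 0) of miR-9-5p and miR-9-3p in each library, labelled by replicate number, with the mean and SD of each stage in black (n = 4). All 4 HH22 values of miR-9-5p (7879 to 9411) lie below its HH18 values (15551 to 23806), whereas for miR-9-3p the stages overlap and HH18 replicate 6 lies highest at 753.

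Measured as a share of all miRNA reads, which needs no size factor, both arms together showed the same order of the stages. They made up 0.0538%, 0.0794%, 0.0839% and 0.0725% of reads in HH18 replicates 5 to 8. They made up 0.0271%, 0.0302%, 0.0346% and 0.0272% in HH22 replicates 1 to 4. The 95% Wilson intervals, which cover counting error only, were narrow even in the shallowest library (0.0773% to 0.0817% in HH18 replicate 6). The mean share was 0.0724% ± 0.0133 at HH18 and 0.0298% ± 0.0035 at HH22 (SD, n = 4; two-sided p = 0.0286 in an exact permutation test, its smallest possible value for 4 against 4). A few miRNAs held most reads, and of the reads left after removing the 5 most abundant features miR-9 took 1.09% ± 0.12 at HH18 and 0.345% ± 0.041 at HH22 (SD, n = 4; exact two-sided permutation p = 0.0286).

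In the order of abundance within a library, miR-9-5p ranked 22 to 29 among all features at HH18. It ranked 34 to 36 at HH22. The spread between replicates was small at the later stage: the SD was 7.23% of the mean at HH22 and 17.0% at HH18. Among 67 tested miRNAs with a mean of 1000 to 100000 normalized counts, the median of this ratio was 14.02% at HH22 and 20.6% at HH18. Only 8 of the 67 had a lower ratio than miR-9-5p at HH22, and 22 did at HH18. HH18 replicate 5, the library with the most blood miRNA reads, had the lowest miR-9-5p of its stage, and a link was not tested. Without that library the log2 fold change of miR-9-5p was -1.31 (limma adjusted p = 0.000121), and without both HH18 replicates 5 and 6 it was -1.36 (limma adjusted p = 9.36e-05).

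miR-9-3p, the scarce arm, showed the same sign but did not pass the threshold. At HH18 it measured 275, 753, 328 and 206.2 normalized counts in replicates 5, 6, 7 and 8, from 119, 180, 411 and 162 reads. At HH22 it measured 168, 201, 161 and 212.03 in replicates 1, 2, 3 and 4, from 500, 320, 284 and 325 reads. HH18 replicate 6 was the highest library, and HH18 replicate 8 fell within the HH22 values, so the stages overlapped. The level was 391 ± 247 at HH18 and 186 ± 24.7 at HH22 (SD, n = 4). Its log2 fold change was -0.90 (SE 0.44, 95% interval -1.87 to 0.073, limma adjusted p = 0.232), an interval that holds both no difference and the value of the 5p arm. Without HH18 replicate 6 it was -0.52 (SE 0.35, limma adjusted p = 0.394).

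The balance of the arms strongly favoured 5p in every library. The 3p arm made up 1.74%, 3.61%, 1.56% and 0.859% of miR-9 reads in HH18 replicates 5, 6, 7 and 8. It made up 2.08%, 2.26%, 1.69% and 2.39% in HH22 replicates 1, 2, 3 and 4. HH18 libraries held both the highest and the lowest share of all 8, with 95% Wilson intervals (3.13% to 4.16% in replicate 6, and 0.737% to 1.00% in replicate 8) that did not meet. There were 26.7 to 115 reads of 5p for each read of 3p at HH18 and 40.8 to 58.3 at HH22. The mean 3p share was 1.94% ± 1.18 at HH18 and 2.11% ± 0.31 at HH22 (SD, n = 4), a difference of 0.16 percentage points (exact two-sided permutation p = 0.8286). Its size and sign rested on single HH18 libraries: it was 0.72 points without replicate 6 and -0.20 points without replicate 8. A change of arm balance was not detectable against this spread.

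**Figure D2:**
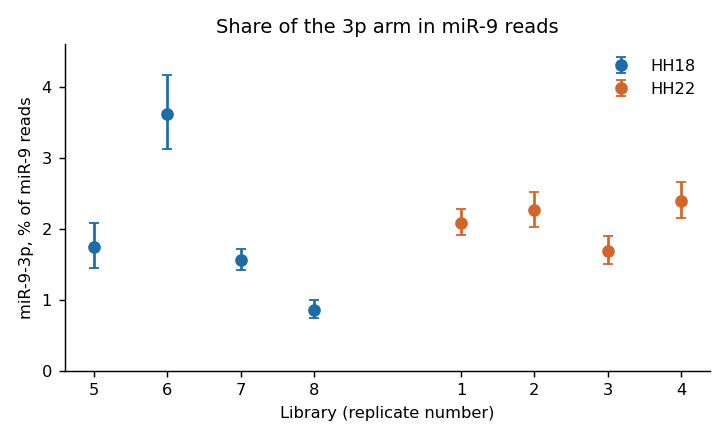
Share of the 3p arm in all miR-9 reads (percent, linear axis from 0) for each library, with 95% Wilson intervals that cover counting error only. The 4 HH22 libraries lie between 1.69% and 2.39%, inside the HH18 range of 0.859% to 3.61%.

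Other hairpins with both arms in the table give a setting for this balance, in a comparison added after the miR-9 values were seen. There were 31 hairpins whose scarcer arm had a mean of at least 100 normalized counts. In 6 of the 31 the scarcer arm had a lower share than that of miR-9 at both stages. The minimum left out any hairpin whose scarcer arm was nearly absent, so 6 of 31 is not a share of all hairpins. HH18 replicate 6 held the highest share of the scarcer arm for 9 of the 31 hairpins, miR-9 among them, and each other library did so for 2 to 5. The share of miR-9-3p in that library was 2.08 times the median of the other 7 libraries. Over the 31 hairpins this ratio ranged from 0 (miR-1552) to 2.54 (miR-200b), so this shallowest library did not favour scarcer arms throughout. Over the 8 libraries, log2 values of the miR-9 arms had a Pearson r of 0.62, and of -0.098 once each stage's mean was removed, given as a description since the libraries share a stage difference.

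**Figure D3:**
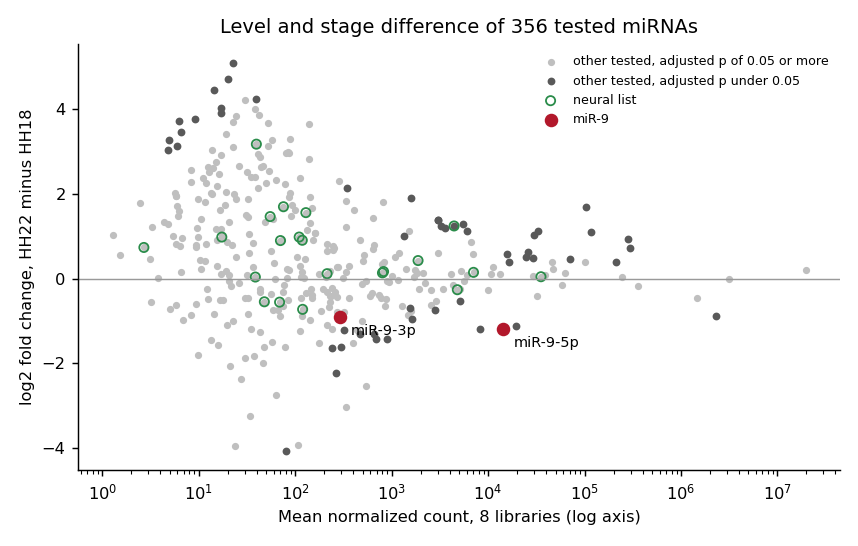
Mean normalized count over 8 libraries (log axis) against log2 fold change, HH22 minus HH18, for the 356 tested miRNAs, with called miRNAs in dark grey, the neural list as green circles and the miR-9 arms in red. miR-9-5p lies at -1.20 and miR-9-3p at -0.90, below every tested feature of the neural list with a mean above that of miR-9-3p.

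The neural list holds 26 features of other miRNAs known from neurons, glia or neural progenitors. Of its 21 tested members 1 rose and 0 fell (limma adjusted p under 0.05). Over all tested miRNAs 9.83% were called higher, 4.78% lower and 14.6% in either direction. A count of 0 falls among 21 lies near the share called lower, so it does not set miR-9-5p apart from the list. The members' median log2 fold change was 0.43 against 0.38 for all tested miRNAs. These medians depended on the count added before taking logs: with 10 added in place of 1 they were 0.17 and 0.15. At an unadjusted limma p under 0.05 the counts were 1 higher and 0 lower. The share over all tested miRNAs was not taken there, so these counts show nothing particular to the list. By voom 0 fell, against 19 of the 356 tested miRNAs. When the 5 most abundant features were left out of the scaling, 1 member rose and 2 fell (miR-128-3p and miR-7), with a median of -0.038. Of all 355 miRNAs tested in that fit, 24 were called higher and 47 lower, with a median of -0.051. The 2 falls therefore show nothing particular to the list. The member that rose was miR-219a, known from oligodendrocytes, and its call was lost with no filter and without HH22 replicate 1. The summed list measured 41643 to 59541 normalized counts at HH18 and 54334 to 62862 at HH22. Within the sum of miR-9 and the list, miR-9 held 26.1% to 29.8% in the HH18 libraries and 12.5% to 14.04% in the HH22 libraries. The list's mean sum was 53994 at HH18 and 58510 at HH22, of which miR-128-3p alone made up 34897 and 35739. The share thus mostly sets miR-9-5p, which itself fell, against that 1 miRNA.

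miR-128-3p, a brain-enriched miRNA and the most abundant of the list, measured 26404, 37378, 39169 and 36637 normalized counts in HH18 replicates 5 to 8. It measured 34413, 40224, 36484 and 31836 in HH22 replicates 1 to 4, so the stages overlapped. miR-218-5p, known from motor neurons, had a mean of 6619 ± 597 in HH18 libraries and of 7491 ± 1895 in HH22 libraries (SD, n = 4). It did not pass the threshold, at 0.15 in log2 fold change (SE 0.18, adjusted p = 0.638 by limma). miR-219a measured 1863, 1614, 4558 and 3073 normalized counts in HH18 replicates 5 to 8 and 7150, 6381, 5817 and 5018 in HH22 replicates 1 to 4, with no overlap. It rose by 1.25 on the log2 scale (SE 0.29, limma adjusted p = 0.0188). Without HH18 replicates 5 and 6, its lowest libraries, the rise was 0.69 (SE 0.19, limma adjusted p = 0.036). In HH18 libraries miR-9-5p thus had 4.54 to 12.5 reads for each read of miR-219a, and in HH22 libraries 1.10 to 1.73.

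miR-124, the defining miRNA of differentiated neurons, was scarce, and its tested features did not pass the threshold in either direction: miR-124a-3p had a log2 fold change of 0.98 (SE 1.53) and miR-124c-3p of -0.55 (SE 1.64). The positive sign for miR-124a-3p rested on HH18 replicate 6, and without that library the value was -0.85 (SE 0.53). The mean of miR-124a-3p was 130 at HH18 and 89.3 at HH22. The 5 features together summed to 261, 481, 208 and 322 normalized counts in HH18 replicates 5 to 8. They summed to 118, 112, 150 and 115 in HH22 replicates 1 to 4. The stages did not overlap: the HH18 mean was 318 ± 118 (SD, n = 4) and the HH22 mean was 2.56-fold lower (SD 17.5, n = 4; exact two-sided permutation p = 0.0286, for a sum taken after its values were seen). Which feature carried the sum differed between libraries: miR-124a-3p was listed at 0 in HH18 replicate 6 and miR-124c-3p at 0 in HH18 replicate 5, while miR-124c-5p had reads (72) in HH18 replicate 6 alone. In each library, 2 or 3 of the 5 features were at 0. There were 41.8 to 99.5 reads of miR-9-5p for each miR-124 read at HH18 and 62.7 to 77.3 at HH22, so this ratio overlapped (difference in log2 ratio 0.095, exact two-sided permutation p = 0.714), which does not show that they move alike. Among the HH18 libraries the highest sum was in replicate 6 and the highest miR-9-5p in replicate 8. The part of neuronal or other neural cells in the fall of miR-9-5p was not tested.

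miR-9-5p was also set against 10 other miRNAs by its ratio to each inside a library. Size factors cancel in such a ratio except through the 1 normalized count added to both values, which matters where the partner has few or no reads, as for miR-124a-3p. For 7 of the 10 the ratio was lower in all HH22 libraries than in any HH18 library (exact two-sided permutation p = 0.0286 for each, Benjamini-Hochberg adjusted over the 10 to 0.0408). All 10 ratios share miR-9-5p, whose own values did not overlap between the stages. Their p-values are therefore not independent and add no separate evidence for its fall. Relative to miR-128-3p the log2 ratio went from -0.80 ± 0.14 to -2.04 ± 0.15 (SD, n = 4), a difference of -1.24. In plain terms, HH18 libraries held 1.54 to 1.89 reads of miR-128-3p per read of miR-9-5p and HH22 libraries 3.68 to 4.63. Relative to miR-99a-5p, one of the most abundant miRNAs here, the log2 ratio fell by 1.18, and relative to miR-219a, which itself rose, by 2.44.

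Against epithelial miRNAs the log2 ratio of miR-9-5p was lower by differences of -1.32 for miR-200b-3p, which maintains the epithelial state, and -2.29 for miR-205a, an epidermal miRNA. The scarcer arm of the miR-200b hairpin, miR-200b-5p, was itself lower at HH22 (log2 fold change -1.18, limma adjusted p = 0.00152). For miR-203a, a promoter of keratinocyte differentiation, the difference was -2.88, and HH18 libraries held 1.95 to 2.80 reads of it per read of miR-9-5p against 15.8 to 20.7 at HH22. For miR-199-5p, a miRNA of mesenchyme, the difference was -3.10. Part of these differences was the partners' own change. At HH22 miR-203a, miR-205a and miR-199-5p were themselves higher, by 1.69, 1.09 and 1.90 in log2 fold change (limma adjusted p under 0.05 each). miR-200b-3p changed little, by 0.13 (SE 0.21).

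In 3 of the 10 ratios the stages overlapped. For miR-183, a miRNA of sensory placodes, the log2 difference was -0.31 (HH18 -8.00 to -6.77, HH22 -7.87 to -7.00, exact permutation p adjusted to 0.4). For miR-302d, of the early embryonic miR-302 cluster, it was 0.22 (HH18 3.65 to 4.28, HH22 3.89 to 4.62, exact permutation p adjusted to 0.4). These ranges do not show that the pairs move alike, only that a difference in their change was not resolved with 4 libraries per stage. Neither partner was steady: at HH22 miR-183 had a log2 fold change of -0.88 and miR-302d of -1.42 (limma adjusted p = 0.0188 and 0.00956). The call of miR-183 was lost without HH18 replicate 8 and without HH22 replicate 2 or 3. For miR-124a-3p the log2 difference was -2.18 (exact permutation p adjusted to 0.357), and -0.34 without HH18 replicate 6, in which that feature was at 0 reads and the ratio was set by the added count and the size factor.

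**Figure D4:**
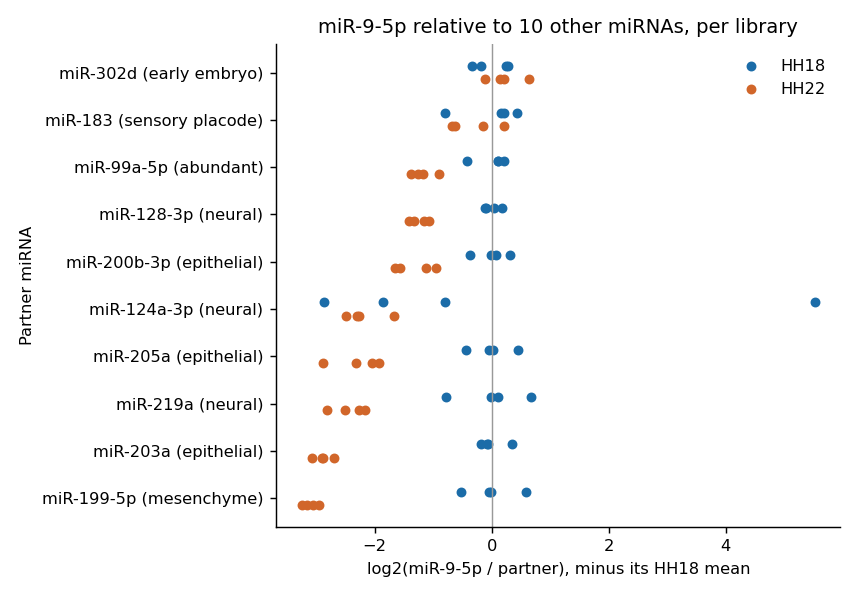
log2 ratio of miR-9-5p to each of 10 other miRNAs in every library, drawn relative to the mean HH18 ratio of that pair (linear axis of log2 values, 4 points per stage). HH22 points lie below all HH18 points for 7 partners, and overlap them for miR-302d, miR-183 and miR-124a-3p, where the HH18 point far to the right is replicate 6 with 0 reads of miR-124a-3p.

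The miRNAs whose levels most resembled miR-9-5p over the 8 libraries were sought among 178 other tested features whose mean reached 100 normalized counts. By Pearson r of log2(normalized count + 1) they were miR-302d (0.95), miR-302a (0.94), miR-1674 (0.92), miR-302b-5p (0.90) and miR-7475-5p (0.90). The 8 values share 1 stage difference, and depth differs with it, so these r values are a description. All 5 had lower values at HH22 with no overlap, from -1.43 to -1.19 in log2 fold change. The exception to passing the threshold among them was miR-7475-5p (limma adjusted p = 0.0826). They were picked for resembling a miRNA that fell between the stages, so their falls follow largely from the choice. Over all tested miRNAs, 8.71% lay entirely below and 4.78% were called lower. After each stage's mean was removed, r with miR-9-5p was 0.70 for miR-302d, 0.79 for miR-302a and 0.60 for miR-7475-5p, but 0.071 for miR-302b-5p and -0.68 for miR-1674. The level of miR-302d, 1299 ± 435 normalized counts in HH18 libraries and 471 ± 85.7 in HH22 libraries (SD, n = 4), was far below the 20034 and 8660 of miR-9-5p.

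The difference of miR-9-5p kept its sign and its call in all 18 alternative fits, with a log2 fold change between -1.66 and -1.11 (limma adjusted p from 1.56e-05 to 0.00234). Thinned to the depth of the shallowest library, it was -1.21 (limma adjusted p = 0.0002). Set against the median of all tested miRNAs it was -1.57, and in the 18 alternatives -1.71 (pseudocount 0.1) to -1.19 (deposited log2 values). A change of scaling leaves this distance nearly fixed by construction. miR-9-3p also stayed negative in all 18 fits, between -1.36 and -0.37, and did not pass in any of them (limma adjusted p from 0.0613 to 0.423).

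**Figure D5:**
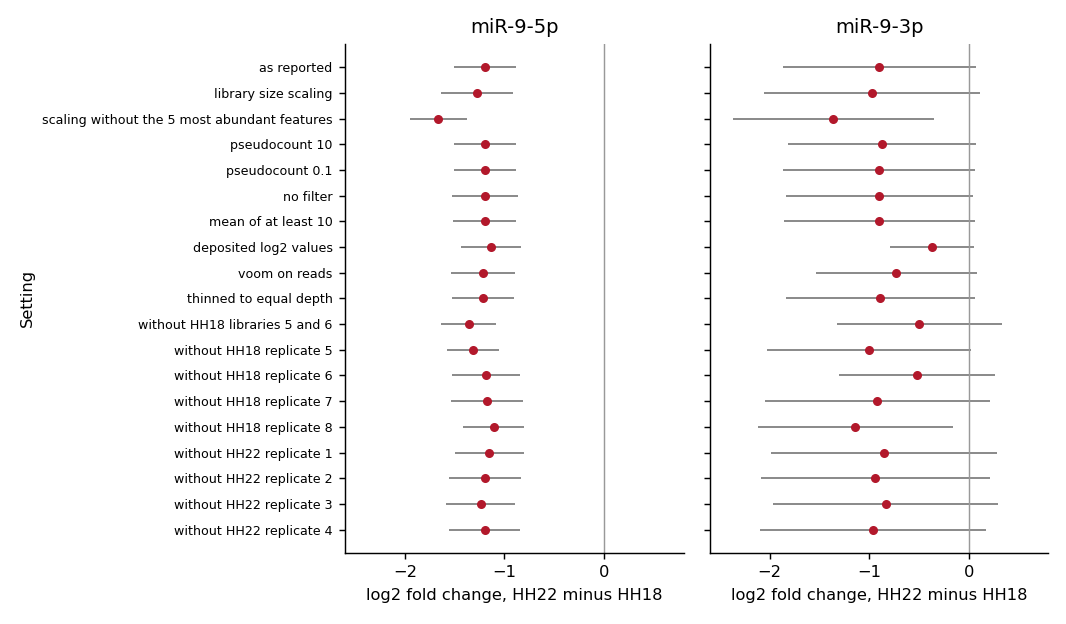
log2 fold change, HH22 minus HH18, of both miR-9 arms as reported and in 18 alternative fits, with limma 95% intervals (linear axis). The intervals of miR-9-5p lie below 0 in every fit, whereas those of miR-9-3p reach 0 in all but 2 fits, the one without HH18 replicate 8 and the one scaled without the 5 most abundant features.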

How the data were processed

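Small RNA libraries were made from total RNA with an Illumina TruSeq kit, per the labels' protocols, and kallisto 0.44.0, cutadapt 1.8.1 and bcl2fastq were used, per the submitters' processing notes. Reference and build: not given in the sources used here. The authors deposited log2 values with 1 shared minimum (8.52). Inverting the closed-form variance-stabilizing transformation gave whole reads for 100% of values above 0 (tolerance 0.001). In each library the step, or worth of 1 read, equalled 1 divided by the library's median-of-ratios size factor. Because kallisto estimates counts, these reads are rounded estimates. Replicates differed beyond sampling noise (chi-square at least 211 times its degrees of freedom).

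A feature was tested if 4 or more libraries had a normalized count of 1 or above, by limma-trend (limma 3.58.1, R 4.3.3) on log2(normalized count + 1), two-sided, Benjamini-Hochberg over all tested, threshold 0.05. Ratios and shares used exact permutation tests (scipy 1.17.1; Python 3.11.15, numpy 2.4.6, pandas 2.3.3, matplotlib 3.10.9), with 1 added to both values of a ratio. The fit was tested on simulated counts. Partners, the neural list and the rule for likeness (5 highest r, mean of at least 100) were chosen with earlier results of these data known. Of 11 partners 10 were in the table. Alternatives changed scaling, filter, pseudocount, depth, test and libraries.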

Additional observations from a re-analysis of the deposited data

Results flagged for a closer look

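The log2 ratio of miR-9-5p to miR-99a-5p in HH18 replicate 5 was -7.73, lower than in the other HH18 libraries (-7.20 to -7.10) by more than the gap test for a single far value allows in 4 samples. It was 1 of 34 groups examined, and chance gives about 1 in 20. Blood miRNAs also had their highest sum in this library, which held the lowest miR-9-5p of its stage. Among the other partners, miR-128-3p (26404 normalized counts), miR-200b-3p (43453), miR-203a (43495) and miR-302d (824) were also lowest of their stage there. miR-183 (3983673), miR-199-5p (753) and miR-124a-3p (259) were highest, and miR-205a and miR-219a were neither. A link of these levels to blood was not tested.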

How the results depend on the processing

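No paired analysis was possible because the stages are separate pools of embryos, and the labels link no HH18 library to an HH22 library. The stage differences of both miR-9 arms kept their sign and their side of the threshold in the 18 alternatives, with 1 library left out between -1.31 and -1.11 for miR-9-5p and between -1.14 and -0.52 for miR-9-3p. The smaller value of miR-9-3p on the deposited log2 values (-0.37) is built into that scale, which compresses low counts. The 3p share differed by -0.20 to 0.72 percentage points with 1 library left out, and the share of all reads by -0.049 to -0.039 points. With 1 library left out no exact test can pass 0.05 (the smallest p is 0.0571), so these are values only. In the ratios to partners, 7 of 10 passed also after thinning and with 10 added to both values, and 1 value changed sign: with all 5 miR-124 features summed, an alternative chosen after seeing the data, the ratio differed by 0.095 in place of -2.18.

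Of all tested miRNAs, 35 were higher and 17 lower. With no filter these were 15 and 9 (24 in all), and thinned to equal depth 23 were higher. Scaled without the 5 most abundant features 47 were lower. With 1 library left out, 17 to 48 were higher, 9 to 19 lower and 27 to 66 in all. Except where given, the cause was not tested. miR-9-3p had 119 to 180 reads in 3 of the HH18 libraries, and thinning to equal depth left its log2 fold change at -0.89 (SE 0.44).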
